A study of Mus musculus with 8 samples.

Results

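Hmgcs1, Idi1, Fdft1, Sqle, Lss and Cyp51 encode enzymes of cholesterol synthesis, Insig1 encodes a brake on that pathway, and Ch25h encodes an enzyme that turns cholesterol into an oxysterol. These 8 genes, of 24972 in the deposited table, were taken by name as sterol genes known to respond to interferon; no threshold on a measured value was used. They were followed by RNA sequencing in primary mouse embryonic fibroblasts (MEFs), the mixed connective tissue cultures grown from dissociated embryos. They were made at embryonic day 14, went through 2 passages in serum-containing medium and received no treatment. The 4 genotypes were wild type (WT), Tfam+/-, with 1 inactive allele of the mitochondrial DNA packaging factor Tfam, Zbp1-/-, lacking the nucleic acid sensor Zbp1, and Tfam+/-Zbp1-/-, carrying both changes. Each had 2 libraries of total RNA. The labels do not say if replicates derive from separate embryos, so the p-values measure only the spread between these libraries, which may be technical. Strain, sex and littermate status are likewise not given in the sources used here.

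Cholesterol is built from acetyl-CoA through mevalonate, isoprenoids, squalene and lanosterol. When sterols in the endoplasmic reticulum run low, the escort protein SCAP carries the transcription factor SREBP-2 to the Golgi, where it is cut and released to switch on genes of the pathway. INSIG proteins hold SCAP back when sterols are plentiful. 25-hydroxycholesterol, the product of Ch25h, strengthens that hold, and it also activates the liver X receptors (LXR), which drive sterol export. Type I interferon raises Ch25h in macrophages and lowers cholesterol synthesis there, which is why these genes are read together in cells with an interferon signature.

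Promoter sequences are shown for Hmgcs1 and Idi1 but not for Cyp51, all lowest in the same libraries, and for Ch25h, which was not. Each is the stretch of 250 bases before the RefSeq start in GRCm38.p6 (mm10), written 5′ to 3′ on the gene's strand: chr13:119690101-119690350 on the plus strand, chr13:8885356-8885605 on the plus strand and chr19:34475149-34475398 on the minus strand. Capitals mark every match, on either strand, to 4 motifs: TCACNCCAC (the core of a sterol regulatory element, bound by SREBP), CCAAT (the NF-Y box, often next to it), GAAA, any 2 bases and GAAA (the core of an interferon-stimulated response element) and GGGA, any 4 bases and CC (the core of an NF-kB site).
Hmgcs1: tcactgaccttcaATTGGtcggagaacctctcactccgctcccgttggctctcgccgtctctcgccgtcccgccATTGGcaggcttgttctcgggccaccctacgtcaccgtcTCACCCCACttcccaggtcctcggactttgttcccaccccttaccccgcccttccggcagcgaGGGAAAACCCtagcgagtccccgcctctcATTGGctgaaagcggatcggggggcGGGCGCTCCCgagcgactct
Idi1: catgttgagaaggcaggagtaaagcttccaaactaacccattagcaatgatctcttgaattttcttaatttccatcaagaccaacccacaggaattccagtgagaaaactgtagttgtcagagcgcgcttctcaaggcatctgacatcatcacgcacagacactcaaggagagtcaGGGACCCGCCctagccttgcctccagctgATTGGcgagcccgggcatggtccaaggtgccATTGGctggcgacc
Ch25h: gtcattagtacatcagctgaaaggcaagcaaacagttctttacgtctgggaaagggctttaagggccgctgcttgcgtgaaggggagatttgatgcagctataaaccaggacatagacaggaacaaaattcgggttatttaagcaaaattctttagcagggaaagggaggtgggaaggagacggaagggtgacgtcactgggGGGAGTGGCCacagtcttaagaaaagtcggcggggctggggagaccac
Of the 8 genes, 6 had such a window, and Sqle and Fdft1 had none in the table. The sterol element core was found in Hmgcs1 alone, as TCACCCCAC 137 to 129 bases before the start, against 1.05% of 32817 mouse windows of the same length. CCAAT occurred 3 times in Hmgcs1, in 2 copies in Idi1 and once each in Lss, Insig1 and Cyp51, against 33.8% of windows with a match. The NF-kB core occurred at 2 places in Hmgcs1 and once each in Idi1 and Ch25h (17.6% of windows), and the interferon element core in none of the 6 (2.97%). No match overlapped a match to another motif. A match describes the letters only.

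All 8 genes were detected in every library and passed the filter used for testing, a mean of at least 10 normalized counts over the 8 libraries, which 13267 genes passed. Library totals were 16752835 to 18303036 normalized counts. Normalized counts are the authors' scaled read counts and are not adjusted for gene length, so levels are compared between libraries and not between genes. Tests used limma on log2(normalized count + 1) with the 4 genotypes fitted together, and a gene was called at an adjusted p under 0.05. This fit of all 8 libraries, with no term but genotype, is called the 8-library fit, and calls are from it unless another fit is named. Tfam was 629 and 610 for WT, 278 and 365 for Tfam+/-, 675 and 471 for Zbp1-/-, and 424 and 375 for Tfam+/-Zbp1-/-, so the 4 libraries with the heterozygous allele were below the other 4. Zbp1 was 64.6 and 69.8 in Tfam+/- and at most 7.34 elsewhere; WT and Zbp1-/- overlapped at these low levels (7.34 and 3.19 against 3.79 and 1.03), so this gene did not separate them. The 9 fibroblast markers were present in all libraries, summing to 333960 to 550400. The 10 macrophage markers were present too, and none was at 0. Replicates correlated across genes at 0.992 in WT and in Tfam+/-Zbp1-/-, and at 0.973 in Tfam+/- and 0.975 in Zbp1-/-. Tfam+/- replicate 1 and Zbp1-/- replicate 2 stood apart from the other 6 libraries in the same way, which was known from earlier results, and results below are given with and without them.

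**Figure D1:**
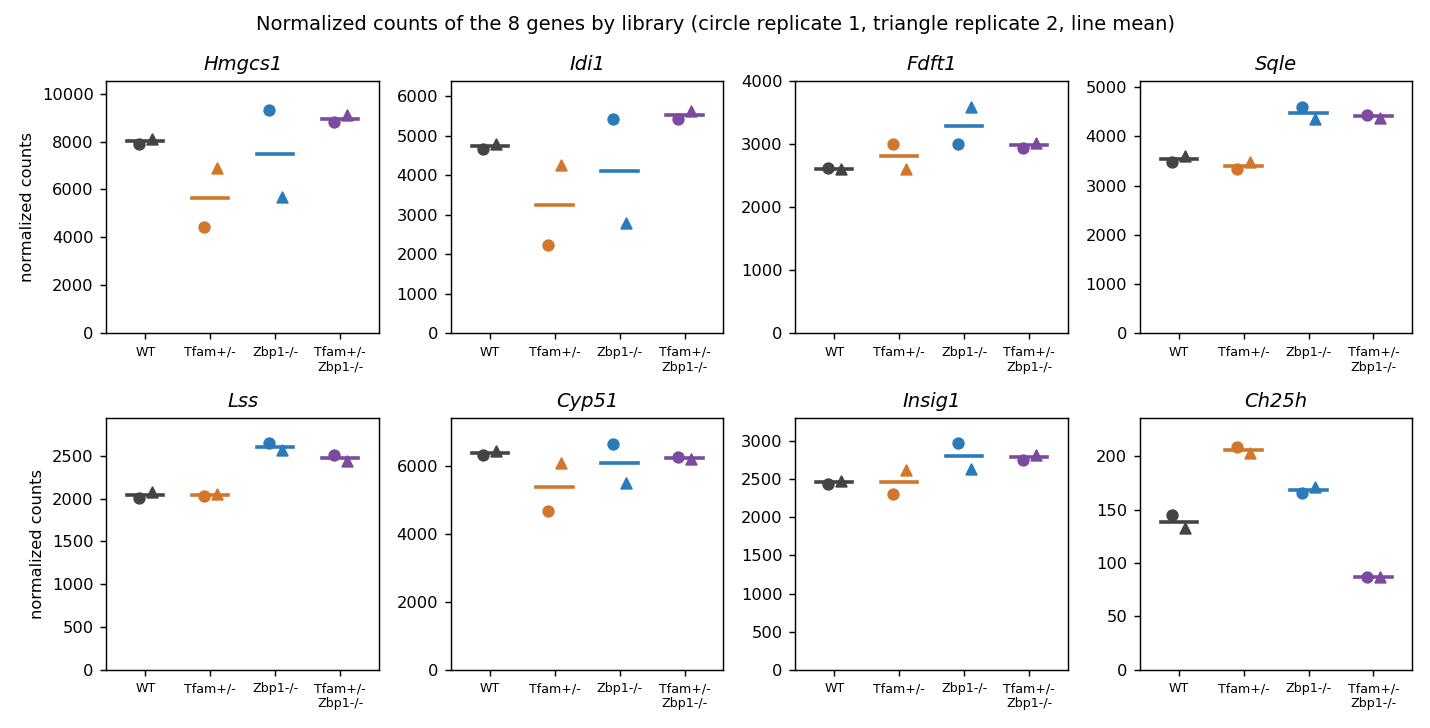
Normalized counts (y axis, from 0) of the 8 genes in each library, by genotype (x axis); circles are replicate 1, triangles replicate 2 and lines the mean of the 2. Ch25h separates the 4 genotypes, Sqle and Lss are higher in the 4 libraries without Zbp1, and Hmgcs1 and Idi1 split within Tfam+/- and within Zbp1-/-.

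Ch25h was the only one of the 8 called in any comparison of the 8-library fit; fits without the 2 libraries that stood apart, given further on, called more of them. It lies on chromosome 19 (34473783 to 34475148). Its level was 145 and 133 normalized counts for WT, 209 and 203 for Tfam+/-, 165 and 171 for Zbp1-/-, and 86.9 and 87.0 for Tfam+/-Zbp1-/-. The highest libraries were those of Tfam+/- and the lowest those carrying both changes, and no 2 genotypes overlapped; the order from high to low was Tfam+/- (206 ± 4.09, SD, n = 2), Zbp1-/- (168 ± 4.08), WT (139 ± 8.87) and Tfam+/-Zbp1-/- (87.0 ± 0.13). Lack of overlap was common: it held for 48.8% of all genes in Tfam+/- against WT and 58.9% in Zbp1-/- against WT. For Tfam+/-Zbp1-/- it held for 72.9% against WT, 55.9% against Tfam+/- and 49.5% against Zbp1-/-. In bulk RNA, fewer cells of a type and less RNA per cell cannot be told apart.

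Ch25h was 2.35-fold lower in Tfam+/-Zbp1-/- than in Tfam+/- (log2 change -1.23 ± 0.13, SE; limma, adjusted p = 0.0044). It was the only one of the 8 called in that comparison, where 5.64% of all genes tested were called. Against Zbp1-/-, Ch25h was 1.92-fold lower (-0.94 ± 0.13, limma, adjusted p = 0.046), again the only one of the 8 called, against 0.415% of all genes. The comparisons share the Tfam+/-Zbp1-/- libraries. Without the 2 libraries that stood apart, the values were -1.21 and -0.92, with 1 library each left for Tfam+/- and Zbp1-/-. The call against Tfam+/- was lost when either Tfam+/-Zbp1-/- library was left out (limma, adjusted p = 0.069 and 0.068), with the value at -1.23 and -1.24. The call against Zbp1-/- was lost when any library but Tfam+/- replicate 2 was left out (limma, adjusted p 0.0503 to 0.51; 0.049 without that one), without the filter on low values (0.079) and when only the 2 genotypes were fitted (0.22).

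The effect of the Tfam allele on Ch25h went in opposite directions with and without Zbp1. With Zbp1 present, the log2 change from WT to Tfam+/- was 0.56 ± 0.13, a 1.48-fold higher level that was not called (limma, adjusted p = 0.18); none of the 8 was called there, against 0.731% of all genes. Without Zbp1, the change from Zbp1-/- to Tfam+/-Zbp1-/- was the -0.94 given above. The difference between these changes, the interaction, was -1.51 ± 0.18 and was called (limma, adjusted p = 0.026), as for 0.663% of all genes and for none of the 7 other sterol genes. It was -1.46 without the 2 libraries that stood apart, and lay between -1.57 and -1.44 when each library was left out in turn. The interaction call was lost in 7 of those 8 fits (limma, adjusted p 0.054 to 0.24) and held without Tfam+/- replicate 2 (0.039); without the filter on low values the adjusted p was 0.052. Between WT and Tfam+/-Zbp1-/-, Ch25h was 1.59-fold lower (-0.67 ± 0.13) without passing the threshold (limma, adjusted p = 0.064), and none of the 8 was called, against 1.38%.

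Ch25h did not rank the genotypes in the order of classical interferon-stimulated genes. The mean log2 level of 11 such genes, among them Isg15 and Irf7, was 6.50 and 6.59 for WT, 9.66 and 9.67 for Tfam+/-, 6.95 and 7.00 for Zbp1-/-, and 7.45 and 7.55 for Tfam+/-Zbp1-/-. Both measures were highest in Tfam+/-, but the libraries carrying both changes were above WT and Zbp1-/- in the 11 genes and below both in Ch25h. Against WT, all 11 had log2 changes above 0 in Tfam+/-Zbp1-/-, as had 75.8% of all genes. Of the 11, 2 were called higher there (0.897% of all genes). The median change of the 11 was 1.02, where the median of all genes was 0.12 and Ch25h had -0.67. The 11 were chosen with their rise in Tfam+/- known.

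Macrophages express Ch25h, and the macrophage markers moved with it in part. Their summed level was 5076 and 5066 for WT, 6884 and 5895 for Tfam+/-, 3241 and 3161 for Zbp1-/-, and 2592 and 2595 for Tfam+/-Zbp1-/-. In Tfam+/-Zbp1-/- against Tfam+/-, 9 of the 10 were called lower (2.32% of all genes), with Csf1r, the receptor of a macrophage growth factor, at 702 and 571 against 237 and 243. The order differed at 1 place: Zbp1-/- was below WT in the marker sum and above WT in Ch25h. Lyz2 alone was 2855 of the 5076 in WT replicate 1, so the sum need not describe each marker. The part of these markers in the Ch25h result was not tested. The 5 genes whose centred log2 levels over the 8 libraries were nearest to those of Ch25h were Garem2, Ctla2a, Lrrc15, Hoxc10 and Myh11. Their root mean square differences were 0.13 to 0.14, where the Ch25h profile itself had a spread of 0.46. None of the 5 is among the 10 macrophage markers, which are few among the 13267 genes tested, so this does not bear on their part.

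**Figure D2:**
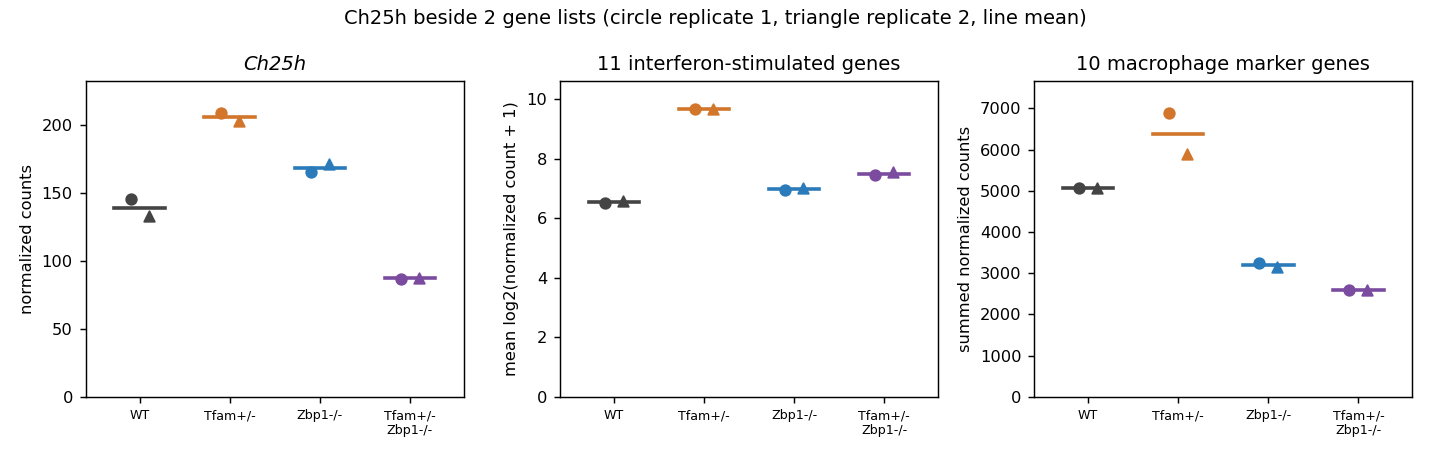
Ch25h in normalized counts (left), the mean log2(normalized count + 1) of 11 interferon-stimulated genes (middle) and the summed normalized counts of 10 macrophage markers (right), by genotype (x axis) and library; circles are replicate 1, triangles replicate 2, lines the mean. In the middle panel Tfam+/-Zbp1-/- lies above WT and Zbp1-/-, and in the left and right panels it lies below all other genotypes.

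Sqle and Lss act on consecutive steps: Sqle, squalene epoxidase, makes the epoxide that Lss, lanosterol synthase, folds into the first sterol. Sqle (chromosome 15, 59315092 to 59331193) was 3480 and 3607 for WT, 3331 and 3482 for Tfam+/-, 4598 and 4348 for Zbp1-/-, and 4444 and 4379 for Tfam+/-Zbp1-/-. Lss (chromosome 10, 76531565 to 76557139) was 2007 and 2074, 2029 and 2050, 2646 and 2564, and 2512 and 2439 in the same order. For both genes the 4 libraries without Zbp1 were above the 4 with it, and WT and Tfam+/- overlapped.

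These differences did not pass the threshold in the 8-library fit. Sqle had a log2 change of 0.34 ± 0.09 in Zbp1-/- against WT (limma, adjusted p = 0.14), 0.32 ± 0.09 in Tfam+/-Zbp1-/- against WT (0.18) and 0.37 ± 0.09 against Tfam+/- (0.064). Lss had 0.35 ± 0.09 (0.13), 0.28 ± 0.09 (0.25) and 0.28 ± 0.09 (0.14). None of the 8 genes was called in Zbp1-/- against WT, where 1.06% of all genes were. Over all genes tested the median change, in log2 units, was also above 0, at 0.11, 0.12 and 0.14 in these comparisons, and -0.00, 0.00 and 0.01 once libraries were rescaled with a trimmed mean of M-values (TMM). Above that median, Sqle was higher by 0.23, 0.20 and 0.23, and Lss by 0.25, 0.16 and 0.14. With the Tfam allele the log2 change was -0.06 for Sqle and -0.00 for Lss when Zbp1 was present, and -0.02 and -0.07 when it was absent.

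Insig1 (chromosome 5, 28071412 to 28078662), whose protein retains SCAP in the endoplasmic reticulum and which is itself a target of SREBP-2, was 2439 and 2478 for WT, 2304 and 2626 for Tfam+/-, 2974 and 2635 for Zbp1-/-, and 2758 and 2815 for Tfam+/-Zbp1-/-. Its 4 libraries without Zbp1 were also above the others, by a narrow gap of 2635 against 2626. After the rescaling this ordering held for Sqle and Lss and not for Insig1. Across all genes tested, 12.3% had the 4 libraries without Zbp1 on top, and 5.71% after rescaling, so 3 and 2 of the 8 stand beside those shares. Insig1 changed by 0.19 ± 0.11 in Zbp1-/- against WT (limma, adjusted p = 0.37), 0.08 above the median of all genes.

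Hmgcs1 and Idi1 were split between the replicates of Tfam+/- and of Zbp1-/-. Hmgcs1 makes the HMG-CoA from which mevalonate is formed, and Idi1 interconverts the isoprenoid building blocks; both lie on chromosome 13 (119690351 to 119708260 and 8885606 to 8892396). Hmgcs1 was 7909 and 8105 for WT, 4433 and 6891 for Tfam+/-, 9327 and 5672 for Zbp1-/-, and 8806 and 9092 for Tfam+/-Zbp1-/-. Idi1 was 4666 and 4799, 2220 and 4267, 5432 and 2779, and 5424 and 5637. In both genes Tfam+/- replicate 1 and Zbp1-/- replicate 2 were the lowest libraries, and Zbp1-/- overlapped WT. Tfam+/- was below WT in both replicates, as for 25.5% of all genes.

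Cyp51 (chromosome 5, 4080674 to 4104697), which removes a methyl group from lanosterol, had the same 2 libraries lowest: 6309 and 6416 for WT, 4680 and 6079 for Tfam+/-, 6636 and 5498 for Zbp1-/-, and 6258 and 6204 for Tfam+/-Zbp1-/-. Fdft1 (chromosome 14, 63145150 to 63181687), squalene synthase, split the other way, at 2620 and 2607, 3008 and 2612, 2998 and 3593, and 2945 and 3022, with Tfam+/- replicate 1 and Zbp1-/- replicate 2 the higher library of their genotype. The 8-library fit called none of these 4 genes in any comparison. In Tfam+/- against WT, Hmgcs1 had a log2 change of -0.53 ± 0.27, Idi1 -0.62 ± 0.38 and Cyp51 -0.25 ± 0.15 (limma, adjusted p = 0.56 for each). Without the 2 libraries that stood apart these were -0.22, -0.15 and -0.07, with 1 library each left for Tfam+/- and Zbp1-/-. The calls of that fit are given further on, beside the share of all genes. Against Tfam+/-, Tfam+/-Zbp1-/- had 0.69 ± 0.27 in Hmgcs1 (limma, adjusted p = 0.21) and 0.85 ± 0.38 in Idi1 (0.27), which became 0.38 and 0.37 without the 2 libraries. For Zbp1-/- compared with WT the values of Hmgcs1, Idi1 and Cyp51 turned from -0.14, -0.28 and -0.07 to 0.22, 0.20 and 0.06.

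The pair of libraries was below the other 6 in 3 of the 8 genes, Hmgcs1, Idi1 and Cyp51, as for 27.5% of all genes, and above them in none, against 21.5%. Within the pathway the direction of the split followed the GC content of the transcript. Of 21 cholesterol synthesis genes, 11 were lower in both shifted libraries than in their replicates, with a median GC content of 45.2% (41.9% to 52.2%), and 10 were higher in both, with a median of 55.5% (49.6% to 59.6%). Idi1, at 41.9% GC, had replicate differences of -0.94 in Tfam+/- and -0.97 in Zbp1-/- (log2, shifted library minus the other). Ch25h had 0.04 and 0.05, and Sqle, at 49.3%, -0.06 and -0.08. Across 12733 genes the mean of these differences and GC content had a Pearson correlation of 0.78 and a Spearman correlation of 0.82. For log2 transcript length the correlations were -0.33 and -0.36. These are descriptions across genes of the same libraries. The median difference was -0.61 for genes of at most 45.3% GC and 0.36 for genes of at least 54.9%.

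**Figure D3:**
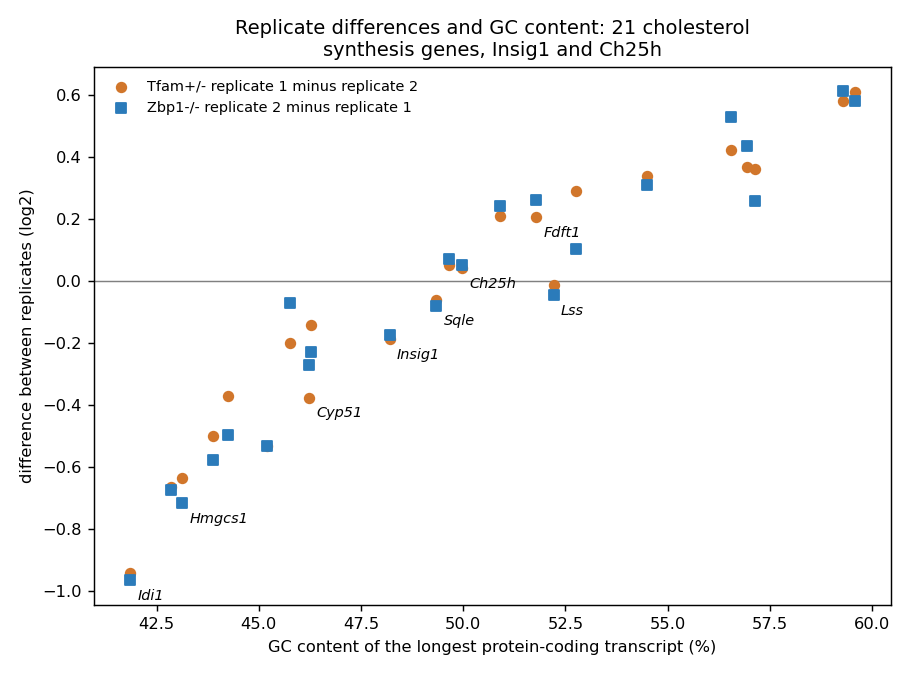
Difference between replicates in log2 units (y axis) against the GC content in percent of the longest protein-coding transcript (x axis) for 21 cholesterol synthesis genes, Insig1 and Ch25h; orange circles are Tfam+/- replicate 1 minus 2, blue squares Zbp1-/- replicate 2 minus 1. Points rise from Idi1 at the lower left to GC-rich genes at the upper right, and Sqle, Lss and Ch25h lie near 0.

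A correction for GC content was added after seeing the data: in each library, a smooth trend of the deviation from the gene's mean over GC content was subtracted. The median size of the replicate difference fell from 0.35 to 0.16 in Tfam+/- and from 0.32 to 0.16 in Zbp1-/- over all genes, and from 0.36 to 0.10 and 0.31 to 0.14 over the 21 pathway genes. For Hmgcs1 the differences became -0.10 and -0.21, and for Idi1 -0.29 and -0.35, so Idi1 kept the widest split of the 8. GC-corrected Hmgcs1 was 7413 and 7485 for WT, 6018 and 6440 for Tfam+/-, 8377 and 7230 for Zbp1-/-, and 7848 and 8115 for Tfam+/-Zbp1-/-. Tfam+/- was then the lowest genotype in both replicates of Hmgcs1, while the other genotypes overlapped in part.

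After this correction 4 of the 8 genes were called in Tfam+/-Zbp1-/- against Tfam+/-, where 17.9% of all genes were. Hmgcs1 was 1.28-fold higher (log2 0.36 ± 0.07, limma, adjusted p = 0.014), Idi1 1.37-fold (0.45 ± 0.13, 0.044) and Sqle 1.19-fold (0.26 ± 0.05, 0.010), and Ch25h was 2.52-fold lower (-1.33 ± 0.10, 1.4e-04). Sqle was also called higher against WT in Zbp1-/- (0.23 ± 0.05, limma, adjusted p = 0.030) and in Tfam+/-Zbp1-/- (0.20 ± 0.05, 0.049), where 8.18% and 7.51% of all genes were called. Ch25h was called in every comparison but Zbp1-/- against WT: 0.54 ± 0.10 in Tfam+/- against WT (limma, adjusted p = 0.030, 3.77% of all genes), -0.79 ± 0.10 in Tfam+/-Zbp1-/- against WT (0.0037), -0.93 ± 0.10 against Zbp1-/- (0.0028, 7.51%) and -1.47 ± 0.14 for the interaction (0.0015, 6.38%). Lss, Fdft1, Insig1 and Cyp51 were called in none of the 6. These calls come from an alternative and not from the values as deposited.

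Leaving out the 2 libraries raised the number of calls among the 8 and among all genes. Tfam+/- and Zbp1-/- then had 1 library each, which is assumed to vary like the others. Against WT, 3 of the 8 were called in Tfam+/- (15.6% of all genes), Ch25h higher and Hmgcs1 and Idi1 lower. In Zbp1-/- 6 were called (34.5%, and 27.3% higher), all of them higher, leaving out Cyp51 and Ch25h, and in Tfam+/-Zbp1-/- 6 were called higher and Ch25h lower (44.9%, and 37.2% higher). Between Tfam+/-Zbp1-/- and Tfam+/-, 5 were called higher and Ch25h lower (43.7%, and 33.8% higher), and between Tfam+/-Zbp1-/- and Zbp1-/- Ch25h and Cyp51 were called lower (23.5%). The interaction was called for Ch25h and Insig1, below 0, and for Hmgcs1 and Idi1, above 0 (19.2%). With a term shared by the 2 libraries and the TMM rescaling together, an alternative added after seeing the data, Sqle and Lss were still called higher in all 3 comparisons that set a genotype without Zbp1 against WT or Tfam+/-: Zbp1-/- against WT (28.4% of all genes called), Tfam+/-Zbp1-/- against WT (26.5%) and against Tfam+/- (33.5%). Ch25h was called in 5 of the 6 comparisons there, all but Zbp1-/- against WT, the others being Tfam+/- against WT (15.7%), Tfam+/-Zbp1-/- against Zbp1-/- (23.5%) and the interaction (16.6%). In Tfam+/-Zbp1-/- against WT the same fit called Idi1, Sqle and Lss higher (12.2% of all genes). It called Ch25h and Cyp51 lower (14.4%), and Hmgcs1, Fdft1 and Insig1 were not called.

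**Figure D4:**
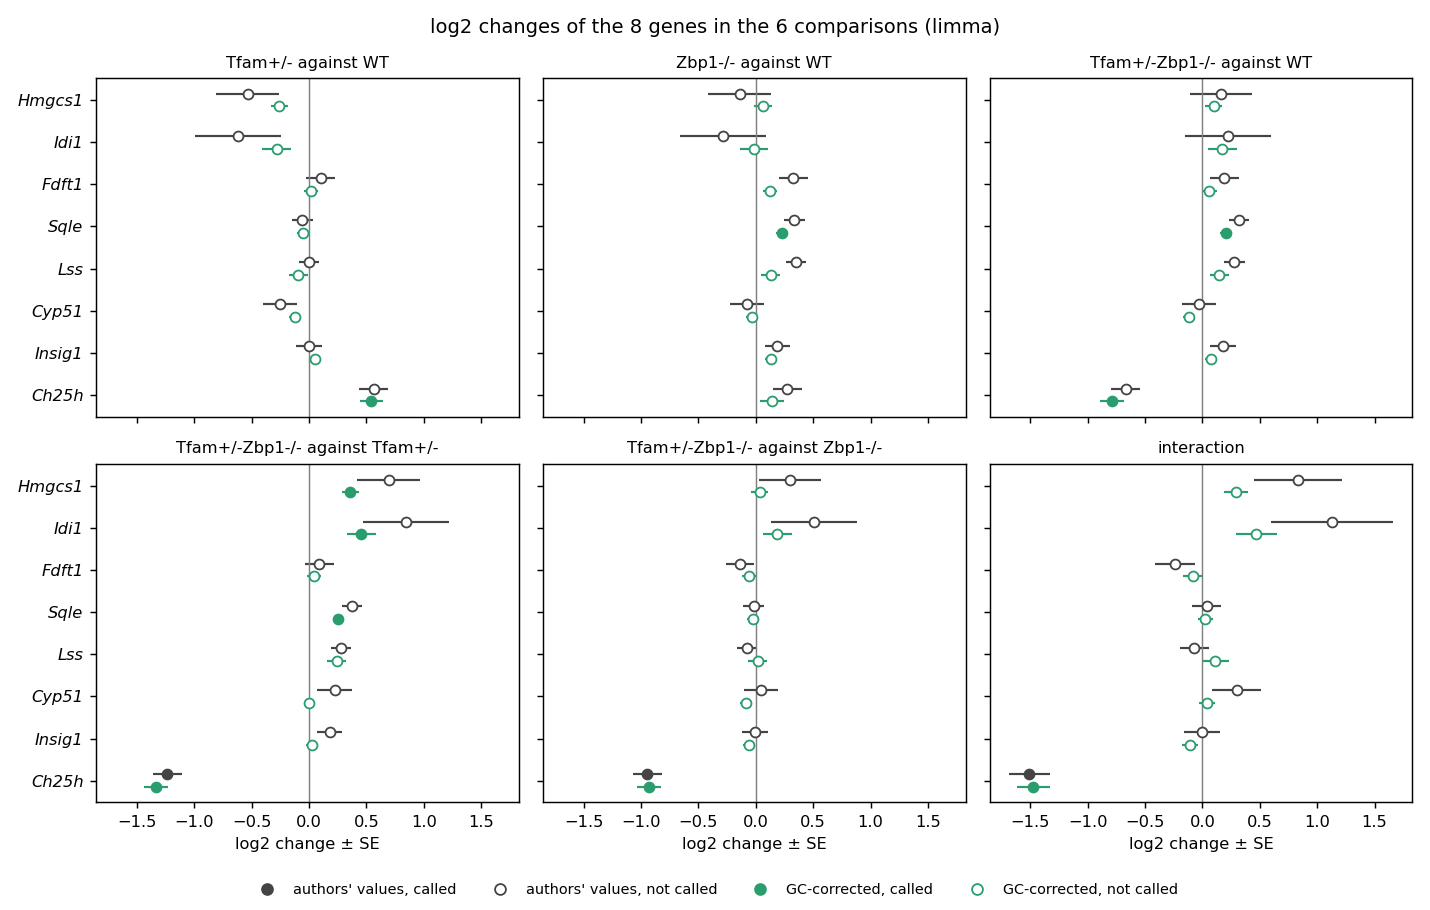
log2 changes with SE (x axis) of the 8 genes (y axis) in the 6 comparisons, from the authors' values (grey) and after GC correction (green); filled points have an adjusted p under 0.05. Ch25h stands apart from the other genes in the lower 3 panels, and the bars of Hmgcs1 and Idi1 shorten after correction.

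The pathway was then read as a whole. In the 8-library fit, limma called none of the 21 synthesis genes in any comparison; at an unadjusted p under 0.05 the counts were 9 of 21 for loss of Zbp1 alone (19.7% of all genes), 0 for the Tfam allele alone (8.74%) and 4 for both changes (12.6%), each compared with WT. Between Tfam+/-Zbp1-/- and Tfam+/- it was 6 (20.8%), between Tfam+/-Zbp1-/- and Zbp1-/- 1 (12.3%), and for the interaction 1 (16%). All 21 had log2 changes above 0 in Tfam+/-Zbp1-/- against Tfam+/- (median 0.25, all genes 0.14), as had 67.8% of all genes. In Tfam+/-Zbp1-/- against WT 20 of 21 did (median 0.22, all genes 0.12), as had 75.8% of all genes. After TMM rescaling these counts were 15 of 21 (51.7% of all genes) and 18 of 21 (50.9%), and after the GC correction 20 of 21 (51.6%) and 19 of 21 (51.4%). Without the 2 libraries that stood apart, 18 of 21 were called higher against Tfam+/- (33.8% of all genes) and 19 of 21 against WT (37.2%), and in Zbp1-/- against WT it was 15 of 21 (27.3%). After the GC correction the medians were 0.08 and 0.11 (all genes 0.01 and 0.01), with 5 of 21 called higher against Tfam+/- (8.69% of all genes): Sqle, Hmgcs1, Idi1, Dhcr7 and Pmvk. Dhcr7, a sterol reductase late in the pathway, was 755 and 618 for Tfam+/- against 854 and 884 for Tfam+/-Zbp1-/- as deposited.

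**Figure D5:**
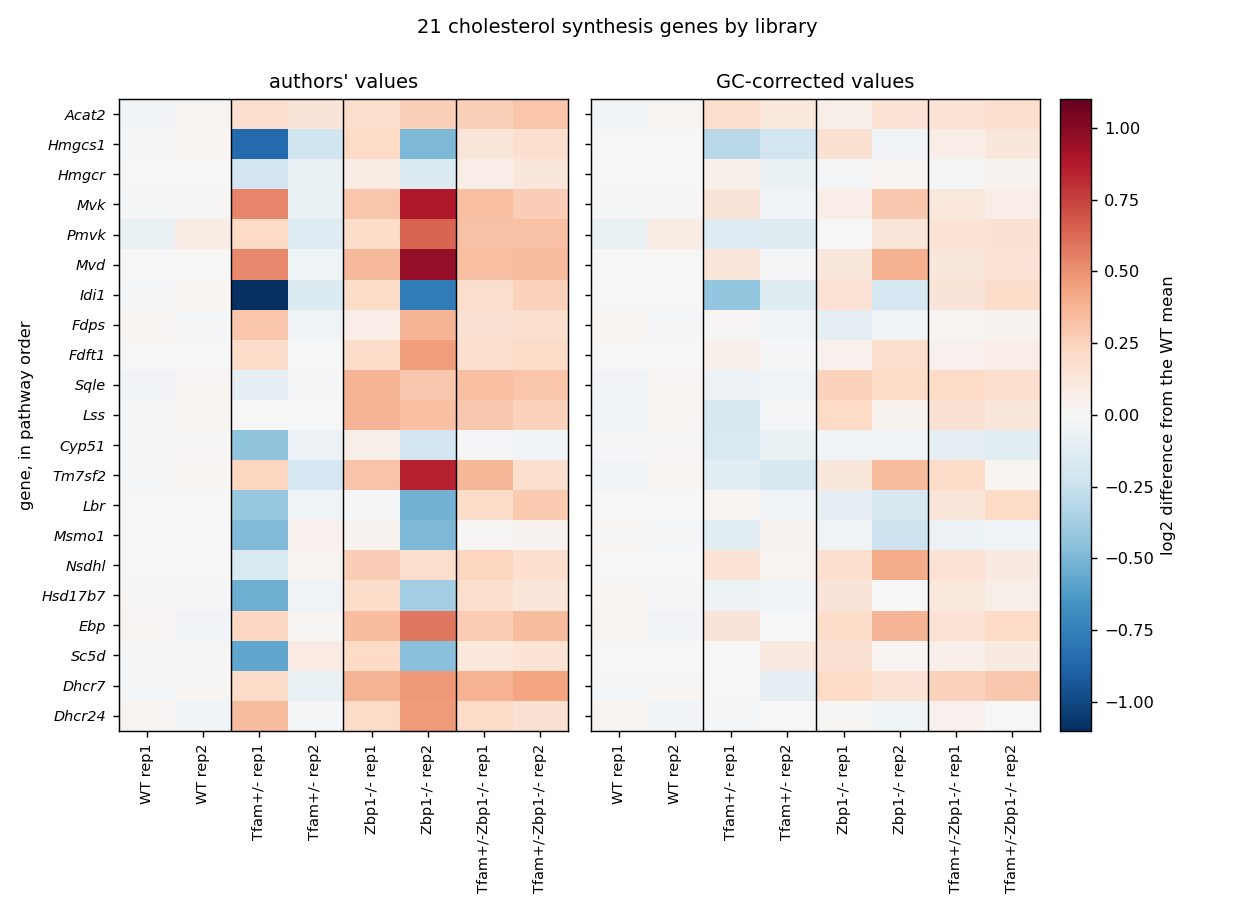
log2 difference from the WT mean (colour) of 21 cholesterol synthesis genes (y axis, in pathway order) in the 8 libraries (x axis), from the authors' values (left) and after GC correction (right). On the left Tfam+/- replicate 1 and Zbp1-/- replicate 2 carry both the deepest blue and the deepest red, with Idi1 and Hmgcs1 lowest; on the right these contrasts shrink and the row of Sqle stays red in the 4 libraries without Zbp1.

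Among the lists around the pathway, the genes other than Ch25h called in the 8-library fit were 4, all between Tfam+/-Zbp1-/- and Tfam+/-. None of 10 SREBP control genes, Insig1 among them, was called in any comparison of that fit; without the 2 libraries that stood apart 5, 6 and 4 of the 10 were called higher in Zbp1-/- against WT (27.3% of all genes), Tfam+/-Zbp1-/- against WT (37.2%) and against Tfam+/- (33.8%). March6, the 11th of that list, is not analysed here. Of 11 tested oxysterol and LXR genes, 3 were called lower (2.32% of all genes): Ch25h, Apoe, a lipid carrier and LXR target, and Abcg1, a cholesterol exporter and LXR target. Apoe was 1389 and 1567 for WT, 3388 and 2270 for Tfam+/-, 1161 and 1447 for Zbp1-/-, and 876 and 891 for Tfam+/-Zbp1-/- (-1.65 ± 0.21, limma, adjusted p = 0.0073). Abcg1 was 50.6 and 60.1, 114 and 96.6, 66.5 and 65.2, and 44.1 and 38.9 (-1.32 ± 0.18, 0.0097). Both were highest in Tfam+/- and lowest in Tfam+/-Zbp1-/-, as Ch25h was. Both are abundant in macrophages, whose markers moved the same way, and that part was not tested. Abca1, another of the 11, was not called and did not follow this order. Its level was 1094 and 1090 for WT, 785 and 1096 for Tfam+/-, 2067 and 1548 for Zbp1-/-, and 1330 and 1319 for Tfam+/-Zbp1-/-.

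Of 8 sterol uptake genes, 1 was called higher (3.32% of all genes): Mylip, an LXR target that degrades the LDL receptor, at 564 and 570 for WT, 425 and 419 for Tfam+/-, 739 and 739 for Zbp1-/-, and 683 and 692 for Tfam+/-Zbp1-/- (0.70 ± 0.10, limma, adjusted p = 0.0098). Mylip was lowest in Tfam+/-, where Apoe and Abcg1, also LXR targets, were highest. Of 9 fatty acid genes driven by SREBP, Acss2, which makes acetyl-CoA from acetate, was called higher (0.66 ± 0.11, limma, adjusted p = 0.022), at 352 and 334 for Tfam+/- against 529 and 555 for Tfam+/-Zbp1-/-. The genes nearest in profile to the mean of the 7 sterol genes other than Ch25h were Smim14, Mon2, Gdap2, Sel1l and Snx18, with root mean square differences of 0.024 to 0.035 over the 8 libraries where that mean had a spread of 0.18. None of these 5 belongs to the sterol lists, and the profile they share has Tfam+/- replicate 1 lowest.

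Ordered by level, the genotypes separated in full for Ch25h alone of the 8 genes. The share of all genes that separate in full was not counted, so it is not known if this is unusual. For Sqle the order was Zbp1-/- (4473 ± 176, SD, n = 2), Tfam+/-Zbp1-/- (4412 ± 45.7), WT (3543 ± 90.1) and Tfam+/- (3407 ± 106), with a gap between the second and the third only. For Hmgcs1 and Idi1 Tfam+/-Zbp1-/- had the highest mean (8949 ± 202 and 5531 ± 150), above WT (8007 ± 139 and 4733 ± 93.8). WT overlapped Zbp1-/-, and Zbp1-/- overlapped Tfam+/-. Tfam+/-Zbp1-/- also overlapped Zbp1-/-, whose replicate 1 was 9327 in Hmgcs1, the highest library of that gene, and 5432 in Idi1. Without the 2 libraries that stood apart, the log2 change between these genotypes was -0.06 in Hmgcs1 and 0.03 in Idi1. For Fdft1 every neighbouring pair overlapped. Tfam+/-Zbp1-/- and WT, the genotypes whose replicates agreed best, did not overlap in any of the 8 genes, as for 72.9% of all genes.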

How the data were processed

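Total RNA was sequenced from 8 MEF libraries, 2 per genotype, grouped by their labels. Per the series' design text, the authors aligned reads in BaseSpace with STAR to mm10 with RefSeq genes; the submitters' processing notes name STAR 2.6.1a and Salmon. The deposited signal is the authors' normalized count per gene, not whole, with a scaling not given in the sources used here; strand use is likewise not given, so overlapping genes are uncertain. Whole reads were not recovered, and no count model was run.

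Values were tested as log2(normalized count + 1) with limma 3.58.1 in R 4.3.3 (eBayes with trend, 4 residual and 2.77 prior degrees of freedom). Genes with a mean of at least 10 entered (13267 of 24972), p-values were two-sided and adjusted by Benjamini-Hochberg over all of them, and 0.05 was the threshold. Fold changes are on that scale. The interaction is the Tfam effect without Zbp1 minus that with it. An exact permutation test of 2 against 2 libraries cannot go below p = 0.333. Coordinates are RefSeq GRCm38.p6, 1-based (97.7% of names matched).

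The 8 genes, the lists and the named-gene rule were chosen with earlier results of these data known. In the interferon list, 1 gene is not reported here, and the list was summarised without it. The rule names the 8 genes, Tfam and Zbp1, called genes of the sterol lists (at most 3 per list and comparison, by smallest p) and the 5 genes nearest in profile. Csf1r, Lyz2, Isg15, Irf7, Dhcr7 and Abca1, and the genes called after GC correction, were named after their values were seen.

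Alternatives were a pseudocount of 5, no filter, a mean of at least 50, TMM rescaling (30% of ratios and 5% of means trimmed), a replicate-number block, fits of only the genotypes compared, a term shared by Tfam+/- replicate 1 and Zbp1-/- replicate 2, the other 6 libraries, and each library left out. After seeing the data, the shared term with TMM and a GC correction (spline of 6 degrees of freedom over the GC content of the longest GENCODE M21 protein-coding transcript, 12733 genes) were added. The 8-library fit was tested on simulated data without the shift of the 2 libraries. The GC correction was tested on simulated data with a GC trend put into those libraries. The other alternatives were not tested this way.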

Additional observations from a re-analysis of the deposited data

Results flagged for a closer look

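The Ch25h response to the Tfam allele differed between cells with and without Zbp1 by the test of the difference itself. With Zbp1 present the level went from 145 and 133 normalized counts in WT to 209 and 203 in Tfam+/-, and without Zbp1 it went from 165 and 171 in Zbp1-/- to 86.9 and 87.0 in Tfam+/-Zbp1-/-. Both Tfam+/- libraries were above both WT libraries (23.3% of all genes), and both Tfam+/-Zbp1-/- libraries were below both Zbp1-/- libraries (23.3%). The log2 difference of the changes was -1.51 ± 0.18 (limma, adjusted p = 0.026 over 13267 genes). Over the alternatives other than leaving out single libraries it lay between -1.53 and -1.46 in log2 units, and the adjusted p between 4.0e-05 and 0.13. With each library left out in turn it lay between -1.57 and -1.44 and the call was lost in 7 of 8 fits (limma, adjusted p 0.054 to 0.24). The summed level of 10 macrophage markers moved in the same directions, from 5076 and 5066 in WT to 6884 and 5895 in Tfam+/-, and from 3241 and 3161 in Zbp1-/- to 2592 and 2595 in Tfam+/-Zbp1-/-; their part in the result was not tested. With 2 libraries per genotype, no search for a distant library within a genotype was possible.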

How the results depend on the processing

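Counts are given in the order Tfam+/-, Zbp1-/- and Tfam+/-Zbp1-/- against WT, then Tfam+/-Zbp1-/- against Tfam+/-, the same against Zbp1-/-, and last the interaction. Of the 8 genes, 0, 0, 0, 1, 1 and 1 were called, and of all genes 97, 141, 183, 748, 55 and 88. The term for the 2 shifted libraries gave 3, 7, 7, 6, 2 and 4 of the 8 and 2069, 4717, 5634, 6049, 3155 and 2240 genes. The 6 other libraries gave 3, 6, 7, 6, 2 and 4 of the 8 and 2061, 4562, 5948, 5784, 3105 and 2537 genes. The term with TMM gave 3, 5, 5, 5, 3 and 3 of the 8 and 2077, 3761, 3517, 4436, 3122 and 2204 genes. The GC correction gave 1, 1, 2, 4, 1 and 1 of the 8 and 480, 1042, 956, 2283, 956 and 812 genes. TMM alone called 1 of the 8 in Tfam+/-Zbp1-/- against WT (Ch25h, -0.79, limma, adjusted p = 0.045), and 83 genes in Zbp1-/- against WT. Its split of higher and lower calls was 60 and 23 there (119 and 22 before), 92 and 99 in Tfam+/-Zbp1-/- against WT (119 and 64 before), and 313 and 430 against Tfam+/- (440 and 308 before). Without a filter, 0 of the 8 were called in Tfam+/-Zbp1-/- against Zbp1-/- and 0 in the interaction, with 87, 117, 26 and 47 genes in Zbp1-/- against WT, Tfam+/-Zbp1-/- against WT and against Zbp1-/-, and the interaction. Fits of only the genotypes compared called 7 of the 8 in Tfam+/-Zbp1-/- against WT and 0 against Zbp1-/-, and 31, 1, 6060, 366 and 1 genes in the 5 pairwise comparisons.

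With the replicate block, 0 of the 8 were called in Tfam+/-Zbp1-/- against Zbp1-/- and 0 in the interaction, and 28, 1, 8, 351, 1 and 0 genes were called (limma; 1381 genes had an unadjusted p under 0.05 in the interaction). The labels do not say if the replicate numbers pair these samples. The replicate 1 minus 2 differences of the genotypes correlated at -0.70 to 0.06 across genes. The -0.70 was between Tfam+/- and Zbp1-/-, which hold the shifted libraries, so these correlations cannot decide the pairing.

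Leaving out each library in turn gave 0 to 1 of the 8 in Tfam+/-Zbp1-/- against Tfam+/-, 0 to 1 against Zbp1-/- and 0 to 1 in the interaction, and 0 to 0 in the others. Calls among all genes ranged from 12 to 98, 0 to 226, 0 to 257, 12 to 877, 0 to 94 and 0 to 133.

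Some small values changed sign, in log2 units, in the order shared term, 6 libraries and term with TMM. In Zbp1-/- against WT, Hmgcs1 (-0.14) became 0.20, 0.22 and 0.088 (0.063 after GC correction), Idi1 (-0.28) 0.19, 0.20 and 0.081, and Cyp51 (-0.07) 0.087 and 0.061 in the first 2. In Tfam+/-Zbp1-/- against Zbp1-/-, Hmgcs1 (0.30) became -0.040, -0.060 and -0.046, Cyp51 (0.04) -0.12, -0.091 and -0.12 (-0.085 after GC correction), and Lss (-0.07) 0.017 after GC correction. In Tfam+/- against WT, Lss (-0.00) became 0.014, 0.0067 and 0.024 (0.0097 with TMM alone), and Fdft1 (0.10) -0.015, -0.00076 and -0.0052. Against Tfam+/-, Tfam+/-Zbp1-/- had -0.039 in Insig1 (0.18) and -0.066 in Cyp51 (0.22) with the term and TMM, and -0.038 in Fdft1 (0.09) with TMM alone. In the interaction, Sqle (0.04) became -0.035, -0.035 and -0.051, Cyp51 (0.30) -0.025, -0.025 and -0.042, and Lss (-0.07) 0.11 after GC correction.

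With single libraries left out, these log2 ranges crossed 0. In Tfam+/- against WT they were -0.024 to 0.023 for Lss, -0.00076 to 0.20 for Fdft1 and -0.093 to 0.095 for Insig1. In Zbp1-/- against WT they were -0.50 to 0.22 for Hmgcs1, -0.77 to 0.20 for Idi1 and -0.21 to 0.061 for Cyp51. In Tfam+/-Zbp1-/- against Tfam+/- it was -0.012 to 0.19 for Fdft1. Against Zbp1-/- they were -0.060 to 0.66 for Hmgcs1, -0.060 to 0.021 for Sqle, -0.094 to 0.081 for Insig1 and -0.091 to 0.18 for Cyp51. In the interaction they were -0.0027 to 0.078 for Sqle and -0.10 to 0.087 for Insig1.

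Ch25h kept its direction in every comparison and alternative run. A pseudocount of 5 and a mean of at least 50 changed no call among the 8. Having 2 libraries per genotype, of unstated origin, limits these results, and depth in reads is unknown because the deposited values are scaled. For the counts and values that moved, the cause was not tested.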
